A study of Mus musculus with 6 samples.

Results

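The interferon-inducible GTPases of the GBP and IRG families are large enzymes that cells make after exposure to interferon and that attack microbes inside the cell. The genes described here are the 10 rows of the count table with the symbols Gbp2, Gbp3, Gbp5, Gbp6, Gbp7, Gbp9, Irgm1, Irgm2, Igtp and Iigp1, out of 24348 genes in the table. All 10 were found, and all 10 passed the filter of at least 10 counts in at least 3 libraries, as did 19925 genes in all. None of the 10 passed the test for a difference between immune complexes and vehicle. In every one of them the highest of the 6 libraries was the same library, replicate 3 of the immune complex group.

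The libraries were total RNA from fibroblasts, the matrix-producing stromal cells of the joint lining, sorted from collagenase-digested synovium of adult wild-type C57BL/6 mice. Of the 6 libraries, 3 came from mice injected into a vein with immune complexes (IC), that is, antigen held by antibody (in the study's methods, ovalbumin with rabbit antiserum against it), and 3 from mice given the control injection, called vehicle in the sample titles. The time between injection and collection, the sort gate and whether a library is 1 mouse were not stated, so p-values here measure the spread between libraries. Total counts were 43577433 to 54025183 in IC and 40114331 to 56714304 in vehicle libraries.

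The label was checked against marker genes. The 10 fibroblast markers, such as Col1a1 and Pdgfra, summed to 44468 to 46197 CPM, the counts of the genes scaled to a common library total in IC and 45405 to 55244 CPM in vehicle libraries. Macrophage markers summed to 32.2 to 50.6 CPM in IC and 39.6 to 51.6 CPM in vehicle libraries. Of the 12 macrophage genes listed, 7 were in the table, among which C1qb and Cx3cr1 were at 0 in at least 1 library. Lymphocyte markers, of which 2 of 10 were in the table, summed to 2.11 to 4.01 CPM in IC and 2.91 to 4.53 CPM in vehicle libraries.

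In mice, interferon gamma from lymphocytes acts through DNA elements called gamma-activated sites (GAS), while type I interferon acts mainly through interferon-stimulated response elements (ISRE), which are bound by a complex that contains STAT2 and IRF9. Both routes can raise GBP and IRG genes. The guanylate-binding proteins (GBPs) coat the vacuoles in which microbes live and help to open them and to start inflammasome signalling. Of the immunity-related GTPases (IRGs), the effector Iigp1 (Irga6) loads onto vacuoles and breaks them, whereas Irgm1, Igtp (Irgm3) and Irgm2 are regulators that sit on the cell's own membranes and keep effectors off them.

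On GRCm38, the assembly that mm10 names, GENCODE M21 places 4 of the genes on chromosome 3 within 144.0 kb, all on the plus strand, with Gbp2b between Gbp3 and Gbp2. They are Gbp5 (chr3:142493978-142522344), Gbp7 (chr3:142530342-142550149), Gbp3 (chr3:142560026-142573209) and Gbp2 (chr3:142620602-142638008). A pair on the minus strand of chromosome 5, Gbp9 (chr5:105077630-105139539) and Gbp6 (chr5:105270702-105293698), spans 216.1 kb. Chromosome 11 holds Irgm1 (chr11:48861968-48871683, minus strand) and, 9360.8 kb from its start to the end of the last gene, the neighbours Igtp (chr11:58199556-58207591) and Irgm2 (chr11:58199618-58222782), both on the plus strand. All 10 are annotated as protein coding, and Iigp1 lies on a further chromosome.

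Promoter sequences from RefSeq (GRCm38.p6; 250 bases before to 50 after each start) were available for 7 of the 10 genes, with a first and a second start for Gbp3; Gbp6, Gbp9 and Iigp1 had no entry. They were searched for the GAS letters TTCNNNGAA, which read the same on both strands, and the strict ISRE core GAAANNGAAA, which reads TTTCNNTTTC on the other strand. The ISRE letters occurred in all 7 genes, at 7 of the 8 starts, compared with 3.44% of all 32851 promoters. The GAS letters occurred in 4 of the 7, compared with 8.3% of all promoters, and both were present in 0.454% of all promoters. A match is a description of the letters and not a shown binding site. The stretches that hold the matches are printed 5′ to 3′ on the strand of the gene, with GAS and ISRE letters in capitals, because they show the arrangement that the family members share and where it differs:
Gbp2 (chr3:142620594-142620623): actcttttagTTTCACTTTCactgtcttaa
Gbp3, first start (chr3:142559989-142560024): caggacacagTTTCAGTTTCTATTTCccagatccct
Gbp7 (chr3:142530220-142530302): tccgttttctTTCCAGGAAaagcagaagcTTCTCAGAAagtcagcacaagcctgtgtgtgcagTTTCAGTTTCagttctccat
Irgm1 (chr11:48871425-48871460, minus strand): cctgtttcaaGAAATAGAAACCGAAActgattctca
Igtp (chr11:58199501-58199541): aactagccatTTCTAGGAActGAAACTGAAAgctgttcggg
Irgm2 (chr11:58214892-58214932): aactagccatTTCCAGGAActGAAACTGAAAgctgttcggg

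Gbp2 held a single ISRE match, starting at -59 relative to the transcript start. In Gbp3 and in Irgm1, overlapping ISRE matches formed 1 block, which began at -30 in Irgm1 and at -45 relative to the first start of Gbp3. The second start of Gbp3 had neither motif. Gbp7 had 2 GAS matches upstream of its ISRE match, and Gbp5, which is not printed because its matches lie far apart, had GAS matches at -245 and -52 and an ISRE match at -165. Igtp and Irgm2 carried the same arrangement, with 11 bases from the first GAS letter to the first ISRE letter, and their 41-base stretches differed at 1 base. The promoters of the related IRG genes Tgtp1 and Tgtp2 had the same 11 bases from start to start, with 9 or 10 of 41 bases different from those of Igtp and Irgm2.

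**Figure D1:**
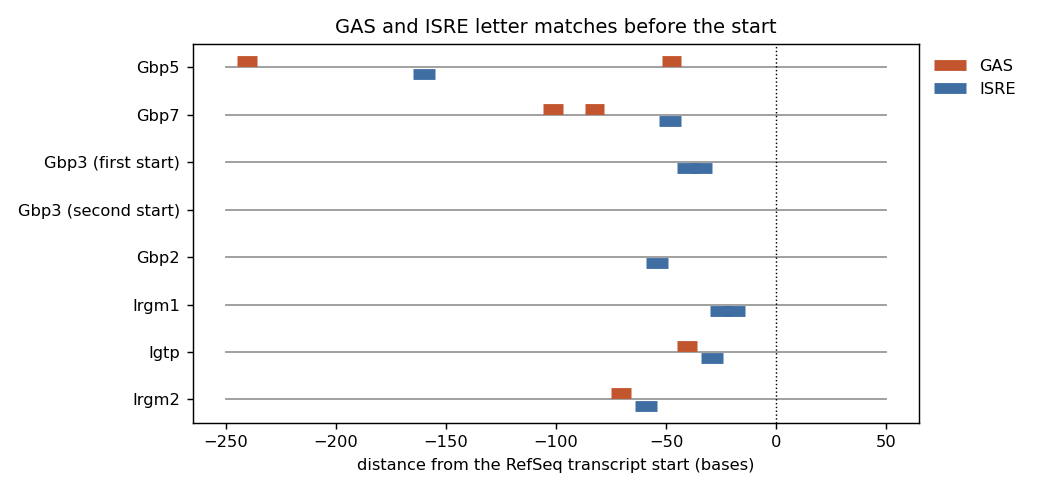
Positions of GAS letters (orange) and ISRE letters (blue) at each of the 8 RefSeq starts, as distance in bases from the transcript start (dotted line). The ISRE letters lie before the start at 7 of the 8 starts, and GAS letters are present in Gbp5, Gbp7, Igtp and Irgm2.

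Levels per exon length were taken in TPM (transcripts scaled to a common total, from the counts and the GENCODE exon lengths). They placed all 10 genes in the upper part of the 23890 genes matched to GENCODE, with ranks by mean from 1039 for Gbp2 to 10202 for Gbp5. In vehicle libraries the highest level was that of Gbp2, at 127 ± 14.6 TPM (SD, n = 3), followed by Iigp1 at 117 ± 13.3 TPM, and the vehicle ranges of this pair overlapped. The regulators Irgm2 (88.3 ± 6.96 TPM) and Irgm1 (88.3 ± 6.46 TPM) came next and also overlapped. Each was above Igtp, the other regulator, at 43.9 ± 6.41 TPM, with no overlap between Irgm1 and Igtp. The remaining GBPs were lower. Gbp3 reached 23.9 ± 4.17 TPM and Gbp7 21.0 ± 0.546 TPM, with overlapping ranges. Gbp9 at 13.8 ± 1.29 TPM and Gbp6 at 13.3 ± 0.426 TPM overlapped each other, and Gbp5 was the lowest at 8.97 ± 0.470 TPM. Thus GBP and IRG transcripts were present in vehicle libraries, where no immune complex had been given.

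**Figure D2:**
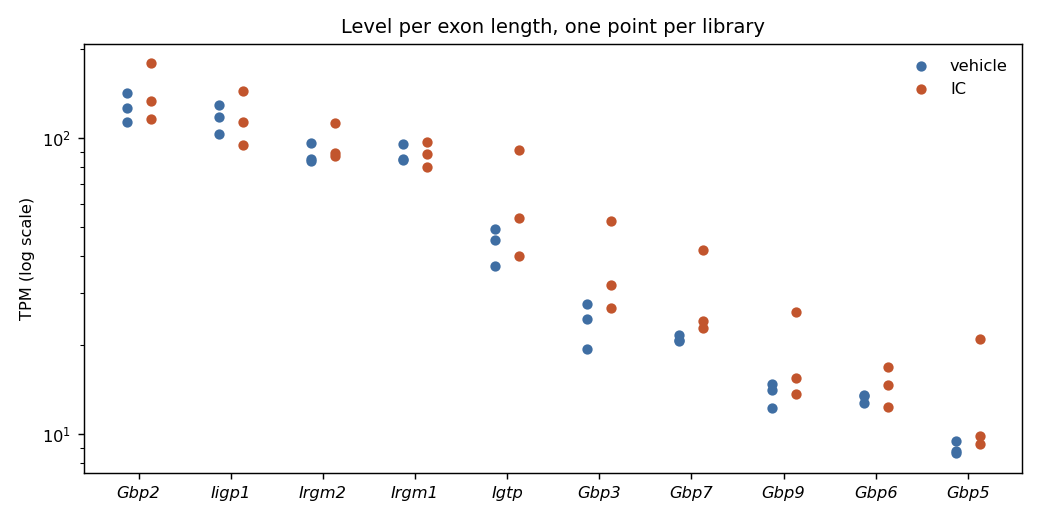
Level per exon length (TPM, log axis) of each gene in each library, vehicle in blue and IC in orange, ordered by level. Vehicle levels run from 127 TPM for Gbp2 to 8.97 TPM for Gbp5, and for each gene the highest point is an IC library.

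The question of the comparison was how synovial fibroblasts responded to circulating immune complexes. Values per library are normalized counts, which are the counts divided by the library's DESeq2 size factor and which do not compare genes of different length. In DESeq2's Wald test, fitted on all 19925 genes and adjusted over those that its independent filtering and outlier check kept, a gene was called at an adjusted p under 0.05. Of the 19925 genes, 1.03% were called higher and 1.07% lower after IC, and none of the 10 GTPase genes was called in either direction. edgeR's quasi-likelihood test called 0.186% of genes and none of the 10, and limma-voom called none of the 10. At an unadjusted p under 0.05, DESeq2 gave 3 of the 10, edgeR 2 and limma-voom 1. The 3 in DESeq2 were Gbp3, Gbp5 and Gbp7, all with higher means after IC, compared with 4.91% of all genes on that side. The share of all genes at this threshold was not taken for edgeR or limma-voom, so their counts cannot be weighed. In bulk RNA, a change in the share of cells with a transcript and a change in its amount per cell cannot be told apart.

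Among the GBPs of chromosome 3, Gbp2 is widely used as a marker of the interferon response and coats pathogen vacuoles. It had 3709, 3174 and 5059 normalized counts in IC replicates 1, 2 and 3 and 3129, 4080 and 3605 in vehicle replicates 1, 2 and 3. Only IC replicate 3 lay outside the vehicle range upwards, and the groups overlapped. The log2 fold change of IC over vehicle was 0.14 (SE 0.15, 95% interval -0.14 to 0.43, adjusted p 0.849 by DESeq2).

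Gbp3 lies between Gbp7 and Gbp2 on chromosome 3. It had 1152, 952 and 1930 normalized counts in the IC and 696, 915 and 1021 in the vehicle replicates. IC replicate 2 lay within the vehicle range, and both other IC libraries lay above it. Its log2 fold change was 0.62 (SE 0.22, 95% interval 0.19 to 1.04), the largest of the 10. The adjusted p was 0.114 in DESeq2 and 0.401 in edgeR. Without IC replicate 2 the log2 fold change was 0.81 and the adjusted p 0.0310, a call in a fit in which 0.771% of genes were called higher.

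Gbp5 promotes the assembly of the NLRP3 inflammasome. It had 681, 714 and 1571 normalized counts in the IC and 630, 719 and 659 in the vehicle replicates. IC replicates 1 and 2 fell within the vehicle range, and IC replicate 3 was 2.19 times the next-highest library, the widest such gap among the 10. IC exceeded vehicle by a log2 fold change of 0.56 (SE 0.25, adjusted p 0.297), and the coefficient of variation was 51% among IC and 6.79% among vehicle libraries.

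Gbp7 has been linked to oxidative defence in phagocytes. It had 1502, 1402 and 2645 normalized counts in the IC and 1282, 1384 and 1311 in the vehicle replicates. It was the 1 gene of the 10 in which every IC library lay above every vehicle library, a pattern shown by 8.09% of all genes, so that 1 of 10 is close to the share over all genes. Every IC library lay below every vehicle library in 7.67% of all genes and in none of the 10. IC replicate 2 exceeded the highest vehicle library narrowly. Its log2 fold change was 0.48 (SE 0.19, 95% interval 0.11 to 0.85, adjusted p 0.195). Part of its sequence, 10% of its 100-base transcript windows, is shared with other transcripts, mostly the pseudogene Gm43802.

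On chromosome 5, Gbp9 had 888, 772 and 1509 normalized counts in the IC and 700, 872 and 829 in the vehicle replicates. IC replicate 1 lay just above the vehicle range, IC replicate 2 within it, and IC replicate 3 was 1.70 times the next-highest library. The change in Gbp9 was 0.40 on the log2 scale (SE 0.21, adjusted p 0.467). Gbp6 had 966, 806 and 1130 normalized counts in the IC and 880, 869 and 918 in the vehicle replicates, so that IC libraries lay on both sides of a narrow vehicle range. Its log2 fold change was 0.12 (SE 0.15, adjusted p 0.883). The Gbp6 count is uncertain, since 64.5% of its 100-base windows also occur in other transcripts, mostly those of the overlapping gene Gm43302, which was not analysed here.

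Among the IRG regulators, Igtp had 1203, 882 and 2071 normalized counts in the IC and 1009, 849 and 1131 in the vehicle replicates. IC replicate 3 was 1.72 times the next-highest library, IC replicate 1 lay just above the vehicle range, and IC replicate 2 within it. Its log2 fold change was 0.48 (SE 0.39, adjusted p 0.757), and the 95% interval, -0.28 to 1.24, was the widest of the 10.

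Irgm2, the neighbour of Igtp with the near-identical promoter stretch, had 3544, 3573 and 4661 normalized counts in the IC and 3389, 4051 and 3561 in the vehicle replicates. IC replicate 3 was 1.15 times the next-highest library, vehicle replicate 2, and the log2 fold change was 0.10 (SE 0.12, adjusted p 0.883). Exons of Igtp and Irgm2 overlap by 162 bases, and 5.16% of the windows of Igtp and 3.01% of those of Irgm2 are shared between them.

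Irgm1, which also acts in autophagy and in the survival of blood and immune cells, had 5668, 5052 and 6345 normalized counts in the IC and 5413, 6340 and 5554 in the vehicle replicates. IC replicate 3 and vehicle replicate 2 were almost equal. Its log2 fold change was -0.02 (SE 0.10, adjusted p 0.983), with the narrowest interval of the 10, -0.22 to 0.18.

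The effector Iigp1, on chromosome 18, had the most counts of the 10, at 7285, 6002 and 9445 normalized counts in the IC and 8302, 6838 and 7785 in the vehicle replicates. IC libraries were both the highest and the lowest. On the log2 scale the difference was -0.01 (SE 0.13, 95% interval -0.27 to 0.25, adjusted p 0.995).

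**Figure D3:**
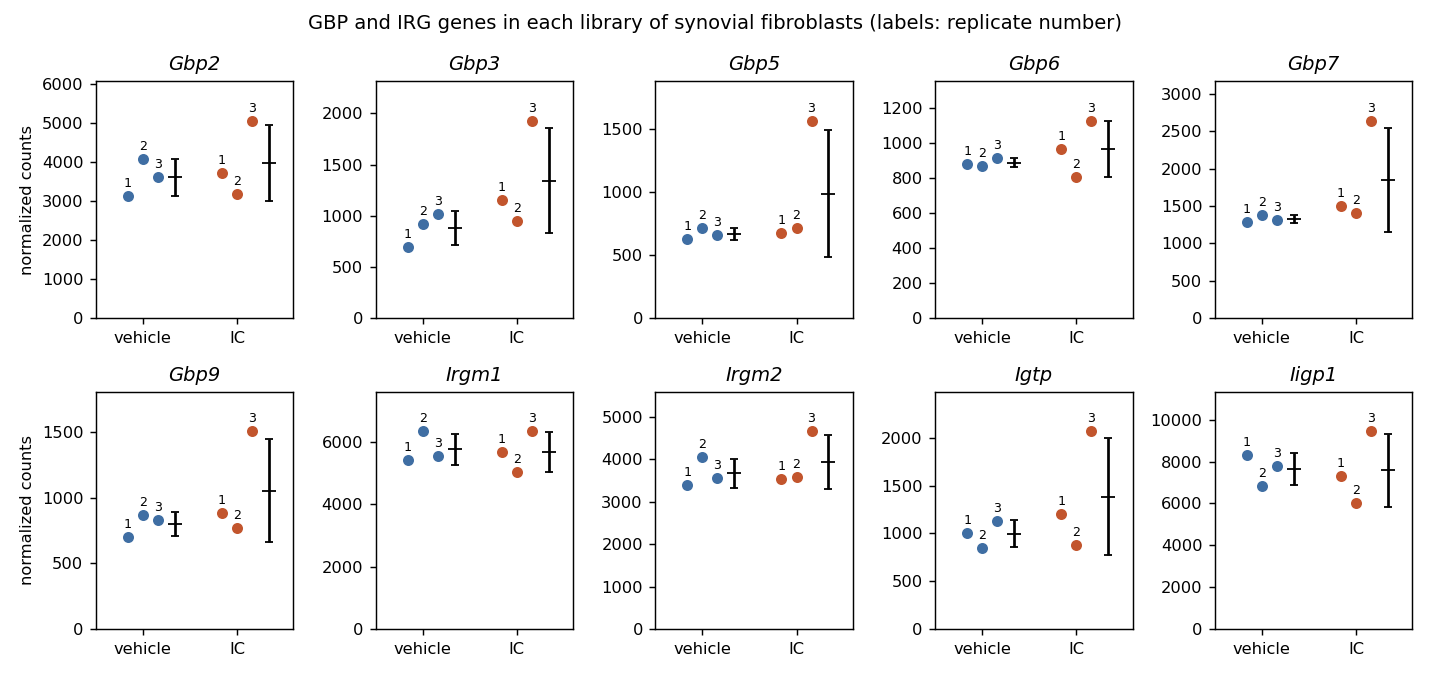
Normalized counts of each gene in each library (points with replicate numbers; vehicle blue, IC orange), with the mean and SD of each group (n = 3) as horizontal tick and bar; each axis starts at 0. IC replicate 3 is the highest point in all 10 panels, and in Irgm1 it is level with vehicle replicate 2.

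IC replicate 3 was the highest of the 6 libraries in 10 of 10 genes, compared with 18.2% of all tested genes. The size of its excess differed among the members. Relative to the next-highest library it was 1.68-fold for Gbp3, 1.70-fold for Gbp9, 1.72-fold for Igtp, 1.76-fold for Gbp7 and 2.19-fold for Gbp5. It was 1.24-fold for Gbp2, 1.17-fold for Gbp6, 1.15-fold for Irgm2 and 1.14-fold for Iigp1, and in Irgm1 the library was level with the next at 6345 against 6340 normalized counts. The first 5 are 4 GBPs and 1 regulator, and all 5 were below Gbp2, Iigp1, Irgm1 and Irgm2 in vehicle TPM, as was Gbp6, whose excess was among the small ones. The summed GBP counts, normalized, were 13844 in IC replicate 3 and 7316 to 8898 in the other 5 libraries, and the summed IRG counts were 22522 against 15509 to 18113. The ratio of GBP to IRG counts was therefore 0.615 in IC replicate 3, against 0.503 and 0.504 in the other IC and 0.404 to 0.489 in the vehicle libraries. All 10 genes together took 0.0751% of the counts of IC replicate 3 and 0.0492% to 0.0554% of those of the other libraries.

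In IC replicate 3, members with GAS letters in the promoter and those without had overlapping ratios, and any role of the letters was not tested. Over the vehicle mean, this library stood at 2.35-fold for Gbp5, 2.00-fold for Gbp7, 2.08-fold for Igtp and 1.27-fold for Irgm2, which have them, and at 2.20-fold for Gbp3, 1.40-fold for Gbp2 and 1.10-fold for Irgm1, which do not.

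The lowest count of any member in any library was 542, for Gbp5, and the counting error at each member's lowest count ran from 1.31% for Iigp1 to 4.3% for Gbp5. The coefficient of variation among IC libraries ran from 11.4% for Irgm1 to 51% for Gbp5, and among vehicle libraries from 2.9% for Gbp6 to 18.9% for Gbp3. The vehicle spread of Gbp6 was below its counting error of 3.64%, that of Gbp7, 3.97%, was near its counting error of 3.05%, and the excess of IC replicate 3 in Irgm1 was within its counting error of 1.48%.

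Without IC replicate 3, the remaining 5 libraries gave log2 fold changes of -0.20 for Iigp1 to 0.26 for Gbp3. None of the 10 was called, and 0.633% of all genes were called higher in that fit. None had an unadjusted p under 0.05, for which the share of all genes was not taken in that fit. Between the fits, the log2 fold change went from 0.56 to 0.06 in Gbp5 (95% interval -0.25 to 0.37), from 0.48 to 0.13 in Gbp7 (-0.11 to 0.37), from 0.48 to 0.07 in Igtp (-0.30 to 0.43) and from 0.40 to 0.05 in Gbp9 (-0.28 to 0.38). In Gbp3 it went from 0.62 to 0.26 (-0.11 to 0.64). Gbp2, Gbp6 and Irgm2 turned from positive to -0.07, -0.004 and -0.04. The median over the 10 genes was 0.27 with all libraries and 0.02 without this one, beside medians over all tested genes of -0.002 and -0.004. This library was left out because it was the highest in all 10 genes, so their fold changes could only fall. Of all tested genes 18.2% were highest in it, so the medians over all genes are not a like comparison. The fall describes how much the values rest on this library and tests nothing.

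**Figure D4:**
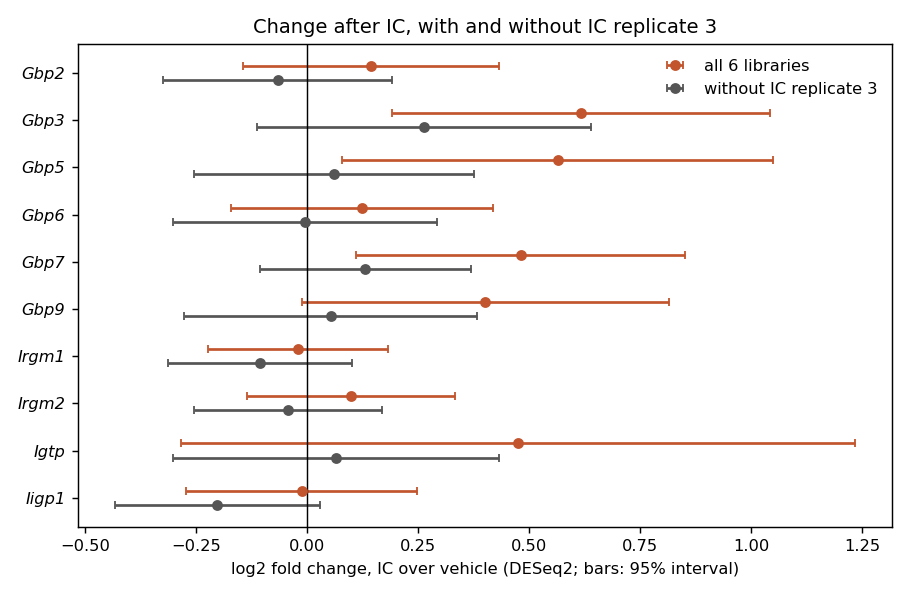
Log2 fold change of IC over vehicle (points) with its 95% interval (bars) by DESeq2 for each gene, with all 6 libraries in orange and without IC replicate 3 in grey. With all libraries the intervals of Gbp3, Gbp5 and Gbp7 lie above 0, and without IC replicate 3 all 10 intervals include 0.

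Other genes of the interferon pathway, and genes that work with the GTPases, were read in the same fit and are called pathway genes here. Among those listed are 12 genes of vacuole loading and 8 inflammasome partners, which are not interferon signalling genes. Of 86 listed genes, 77 were in the table, 72 were tested and 6 of these had no adjusted p. DESeq2 called 5 higher after IC and none lower, compared with 1.03% and 1.07% of all tested genes. edgeR called none, compared with 0.186% of all tested genes. The median log2 fold change of the 72 was 0.11, and 37 of 72 (51.4%) were highest in IC replicate 3.

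None of the 7 listed interferon genes, Ifng among them, had a row in the count table, so their levels could not be read. None of the 7 receptor and JAK genes was called, with log2 fold changes of 0.01 for Ifngr1 (adjusted p 0.993) and -0.03 for Ifngr2 (adjusted p 0.982), the chains of the interferon gamma receptor. Their median was 0.06, and 3 of 7 were highest in IC replicate 3.

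Of 10 transcription factors, 1 was called. Stat2, which encodes a subunit of the ISRE-binding complex, had 7418, 6651 and 9855 normalized counts in the IC and 5695, 5064 and 5784 in the vehicle replicates. Every IC library was above every vehicle library, with a log2 fold change of 0.53 (SE 0.12, adjusted p 0.00197 in DESeq2 and 0.137 in edgeR). Without IC replicate 3 Stat2 was still called, at 0.35 (adjusted p 0.0296). Irf9, which encodes the DNA-binding subunit of that complex, was at 0.26 on the log2 scale (adjusted p 0.0637). Irf1, an early interferon-induced factor that acts on GBP promoters, stood at a log2 fold change of 0.11 (adjusted p 0.590).

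Among 10 other tested interferon-inducible GTPases, 4 of which had no adjusted p, only Mx2 was called by DESeq2. Mx2 belongs to the dynamin-like antiviral GTPases, but GENCODE M21 annotates this gene as a polymorphic pseudogene, so its transcript need not yield a working protein. Its log2 fold change was 0.54 (SE 0.13, adjusted p 0.00231 in DESeq2 and 0.0986 in edgeR). Mx2 had 2878, 2378 and 3321 normalized counts in the IC and 2131, 1858 and 1919 in the vehicle replicates, with no overlap, and without IC replicate 3 its adjusted p was 0.0585 at a log2 fold change of 0.42. Mx1, chosen after its values were seen, had 318, 174 and 2373 normalized counts in the IC and 130, 197 and 131 in the vehicle replicates, so that IC replicate 3 was 7.45 times the next-highest library (adjusted p 0.221).

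Several relatives of the 10 behaved differently from one another. Gbp4, a low-level GBP, had 138, 129 and 125 normalized counts in the IC and 132, 90.7 and 169 in the vehicle replicates, so that IC replicate 3 was not its highest library. Ifi47, an IRG also called Irg47, had 904, 819 and 1971 normalized counts in the IC and 1038, 1017 and 1025 in the vehicle replicates (log2 fold change 0.26, adjusted p 0.921). Its 2 lower IC libraries were below every vehicle library, and IC replicate 3 was 1.90 times the next-highest. No GAS or ISRE letters were found in the Ifi47 promoter window. Tgtp1 had 7.71, 10.3 and 30.5 normalized counts in the IC and 8.20, 4.72 and 14.6 in the vehicle replicates and shares 73.1% of its windows, mostly with Tgtp2, so that its count is uncertain.

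The 12 type I interferon targets, antiviral genes other than GTPases, included 2 called genes. Oas1a, which makes the activator of RNase L, had a log2 fold change of 1.18 (SE 0.33, adjusted p 0.0176), and Ddx58, the RNA sensor RIG-I, one of 0.62 (SE 0.16, adjusted p 0.00587). Without IC replicate 3 neither was called, at 0.64 (adjusted p 0.408) and 0.35 (adjusted p 0.0728). All 12 were highest in IC replicate 3, so that leaving it out could only lower their fold changes. Their median log2 fold change was 0.86 with all libraries and 0.29 without IC replicate 3. None of the 11 tested interferon gamma targets was called, 7 of them were highest in IC replicate 3, and their median was 0.06 with and -0.05 without it.

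Of 6 feedback inhibitors, Socs3 was called, with 55021, 53165 and 55069 normalized counts in the IC and 46527, 45995 and 47746 in the vehicle replicates. The groups did not overlap and IC replicate 3 did not stand apart, with a log2 fold change of 0.22 (SE 0.06, adjusted p 0.0305) and, without IC replicate 3, of 0.21 (adjusted p 0.0720). For Socs1, the main inhibitor of interferon gamma signalling, the log2 fold change was 0.07 (adjusted p 0.883). None of the 12 genes that act in loading GTPases onto vacuoles, and none of 5 tested inflammasome partners, was called, and in each of these lists 1 gene was highest in IC replicate 3. Without IC replicate 3, the inflammatory caspase Casp4 of the inflammasome list, named after its values were seen, was called at a log2 fold change of 0.43 (adjusted p 0.0249), compared with 0.33 (adjusted p 0.120) in all libraries.

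Placed on 1 scale, the log2 ratio of IC replicate 3 over the mean of the other 5 libraries was 0.18 to 1.21 for the 10 GTPase genes, with a median of 0.70. It was 0.61 to 2.65 for the type I interferon targets (median 1.53), -0.04 to 0.84 for the interferon gamma targets (median 0.32), -0.02 to 0.16 for receptors and JAKs and -0.14 to 0.13 for vacuole loading. Over all tested genes the median was -0.01, and the 5th to 95th percentiles were -1.38 to 0.68. The ratio was thus above 0.68, the upper of these bounds, in the same 5 genes that had the largest excess over the next-highest library.

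**Figure D5:**
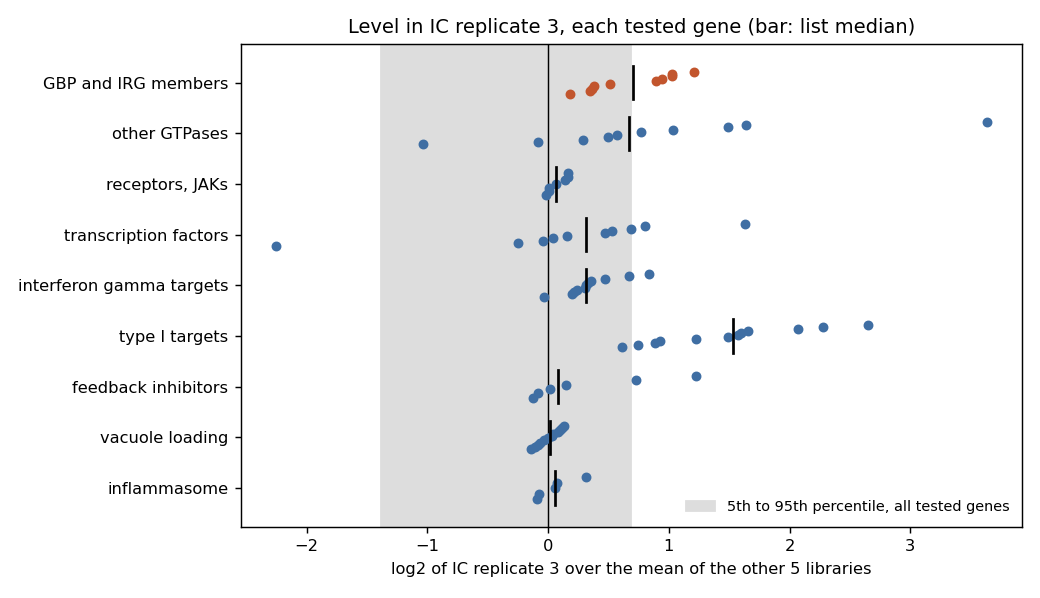
Log2 ratio of IC replicate 3 over the mean of the other 5 libraries for each tested gene of the GBP and IRG members (orange) and of each pathway list (blue), with the list median as a vertical bar and the 5th to 95th percentile of all tested genes in grey. Members range from 0.18 to 1.21 and type I targets from 0.61 to 2.65, all above 0.

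Summed markers of other cell types were lowest in that library, but single markers were not always so. The Schwann marker Pmp22 was at 206.5 CPM there and 192.8 CPM in IC replicate 2, and the mural marker Notch3 at 202 and 198 CPM. The summed markers in IC replicate 3 were 32.2 CPM for macrophages, 2.11 CPM for lymphocytes, 223 CPM for endothelial cells, 17.4 CPM for skeletal muscle, 397 CPM for mural cells and 227 CPM for Schwann cells, each the lowest of the 6 libraries. Among the other IC libraries, endothelial markers summed to 297 and 307 CPM and muscle markers to 46.6 and 33.4 CPM. Fibroblast markers summed to 46197 CPM in IC replicate 3, the highest of the IC libraries and within the vehicle range. Between the groups, DESeq2 called 3 endothelial, 2 muscle and 1 mural marker lower after IC, compared with 1.07% of all genes. No macrophage, lymphocyte or Schwann marker was called, and of the fibroblast markers 1 was called higher and 2 lower. The part of cell composition in the GTPase values was not tested.

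The 5 other genes whose levels over the 6 libraries were most like the mean standardized profile of the 10 were Trim30a (Pearson's r 0.991), an interferon-inducible TRIM protein, Hist2h2aa2 (0.987), Mcrip1 (0.984), Lgals8 (0.983), which encodes galectin-8, a sensor of damaged vacuoles, and Gm12715 (0.983), out of 13425 genes with a mean of at least 100 normalized counts. With 6 libraries, of which 1 stands apart, this likeness is a description. Trim30a had 898, 773 and 1864 normalized counts in the IC and 795, 902 and 846 in the vehicle replicates. Lgals8 had 3014, 2880 and 3554 in the IC and 2811, 2949 and 2907 in the vehicle replicates, a smaller excess in the same library. Among the 10 themselves, r with the mean profile ran from 0.721 for Iigp1 to 0.986 for Gbp9.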

How the data were processed

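RNA was sequenced from 3 IC and 3 vehicle libraries of sorted mouse synovial fibroblasts. The deposited values are raw read counts per gene, which the authors made with Trim Galore, FastQC, HISAT2 on mm10 and featureCounts. Versions, annotation and strand setting were not given in the sources used here, and the library kit in the labels is not the one in the study's methods. The study's methods also mention batch removal with sva, and the labels name no batch. The 6 files per library were identical to the columns of the combined table.

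The filter, 10 counts or more in 3 libraries or more, kept 19925 of 24348 genes and left out 0.0429% of counts. These were fitted by DESeq2 (version 1.42.0) in R (version 4.3.3), with treatment as the only term and Benjamini-Hochberg adjustment after DESeq2's independent filtering and outlier check. Log2 fold changes are unshrunken, whereas DESeq2 shrinks the dispersion, its estimate of spread, towards a trend over genes. An interval therefore need not follow a gene's own spread. The SE was 0.39 for Igtp and 0.25 for Gbp5, while their coefficients of variation among IC libraries were 44.4% and 51%. DESeq2 gave no adjusted p to 3870 genes, which the adjustment leaves out. Alternatives used edgeR (version 4.0.16), limma-voom (limma version 3.58.1), scaling by TMM or by total counts, all genes with no filter, a fit without independent filtering and one without Cook's cutoff, a block for the replicate number, a term for 1 surrogate variable (sva version 3.50.0), and fits lacking 1 library each. Between libraries of a group the chi-square over genes was at least 15.2 per degree of freedom, above sampling noise.

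Symbols were matched to GENCODE M21 for 23890 genes (98.1%), which gave coordinates and exon lengths for TPM. Near-copies were sought as shared 100-base transcript windows. Genes named are the 10 members, the pathway genes called, Irf1, Irf9, Ifngr1, Ifngr2, Ifng, Socs1, Gbp4, Tgtp1 and Ifi47, and the 5 genes most like the members, by log2 of the normalized count plus 1. The members, lists and rules were chosen with earlier results of these data known. 1 further gene of the naming rule is not reported here. Protein sequences were not used here.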

Additional observations from a re-analysis of the deposited data

How the results depend on the processing

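None of the 10 GTPase genes was called under any of the 9 alternatives that kept all 6 libraries, and leaving out 1 library gave 0 to 1 called genes, the 1 being Gbp3 without IC replicate 2. Of the log2 fold changes of single genes, 139 values kept their direction and their side of the threshold, 1 gained a call and 10 changed sign. Irgm1 was 0.048 with 1 surrogate variable. With each library left out in turn, the log2 fold change ranged from -0.066 to 0.28 in Gbp2, from -0.0040 to 0.24 in Gbp6, from -0.11 to 0.058 in Irgm1, from -0.043 to 0.18 in Irgm2 and from -0.20 to 0.13 in Iigp1, none of them called. Over all alternatives that kept the 6 libraries, the adjusted p ran from 0.0922 to 0.723 for Gbp3 and from 0.19 to 0.782 for Gbp7. The number of pathway genes called was 5 in DESeq2, 0 with edgeR and 0 with limma-voom, and 2 to 7 with a library left out. Over all genes, DESeq2 called 205 higher and 214 lower, edgeR called 37 and limma-voom 62. With a library left out, 281 to 677 of all genes were called. The number of pathway genes called was 2 without vehicle replicate 2 and 2 without IC replicate 3. In the latter fit the called genes were Stat2, 1 of the 5, and Casp4, which is not among the 5. With the replicate number as a block, 3 pathway genes and 0 of the 10 were called. The correlations of same-numbered libraries were -0.0918, -0.164 and 0.025. With 3 libraries a group, these values cannot decide whether the numbers pair the samples. The cause of these changes was not tested. With 3 libraries a group, the interval of each gene's difference gives the range of differences compatible with these counts. A gene that was not called is therefore not shown to be unchanged.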
